A study of Mus musculus with 12 samples.

Results

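The genes described here encode transcription factors that build and maintain skeletal muscle: the myogenic regulatory factors Myod1, Myog, Myf6 and Myf5, the satellite cell factor Pax7, the myocyte enhancer factors Mef2a, Mef2c and Mef2d, and the homeobox factor Six4. They were chosen by symbol from 9 names, and 6 of the 9 (Myod1, Myf6, Mef2a, Mef2c, Mef2d and Six4) had a row among the 10187 genes of the table. Myog, Myf5 and Pax7 were not analysed here. All 6 genes had a mean of at least 10 normalized reads over the 12 mice, and so were among the 7247 genes tested.

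The mice were male C57/BL6 animals, and RNA came from the triceps brachii, a muscle of the upper forelimb. Inactive mice had no wheel, whether wild-type (IW) or with reduced myostatin (IM), whereas active mice of either genotype (AW and AM) each had a running wheel for 12 weeks from 6 months of age, with n = 3 mice in each group. Before the trial mice shared cages, and active mice were moved to single cages for the wheel period. The paper reports no such move for inactive mice. A change with activity thus cannot be told apart from one with single housing. Tamoxifen, the drug that switches on Cre recombinase here, was in the food of both genotypes, active or not (0.025%, 6 weeks). Myostatin-reduced mice carried a Mstn gene with a floxed exon 3, and wild-type mice a normal one. The paper states that sampled mice of the genotypes were matched by how they ran. Which mouse was matched with which is not given in the sources used here. The promoter that drives Cre, and whether wild-type mice also carried Cre, are not given in the sources used here.

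Myogenic regulatory factors are basic helix-loop-helix proteins that pair with E proteins, bind short sequences called E-boxes and switch on muscle genes. MEF2 factors bind A/T-rich sites in many of the same genes and act together with the myogenic factors, while class IIa histone deacetylases hold MEF2 in check and acetyltransferases such as p300 assist it. In adult muscle Myf6 (also called MRF4) is the most abundant myogenic factor of mature fibres, Myod1 is found more in fast than in slow muscle, and Pax7 and Myf5 mark satellite cells, the muscle stem cells. Myostatin is a secreted inhibitor of muscle growth that is known to restrain Myod1 in cultured myoblasts.

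Estimated depth was 9023431 to 12184109 reads per mouse. Mstn fell by 2.66 (SE 0.16) on the log2 scale in myostatin-reduced mice (limma adjusted p = 1.29e-06), and its 6 myostatin-reduced values, the highest 21.6 normalized reads, were all below its 6 wild-type values, the lowest 79.7. The 8 myofibre markers, among them the creatine kinase gene Ckm and the fast myosin gene Myh4, summed to 144175 to 239631 normalized reads per mouse. None of the slow-fibre genes is among these 8, and 6 of them were called lower with the slow-fibre score described below. Their sum is thus no measure of the share of fibres. Slow-fibre genes differed widely within groups, with sums over 11 genes of 94.3 to 1370 in IW, 78.3 to 112 in IM, 151 to 1831 in AW and 117 to 1343 in AM mice. In these whole-muscle samples, fewer cells of a type and less RNA per cell cannot be told apart.

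The levels of the 6 genes were compared per kilobase of the longest annotated coding transcript. Mef2c was the highest by far, at 143.9 ± 16.4 normalized reads per kilobase (SD, n = 12 mice), followed by Myf6 at 68.9 ± 8.60. Their ranges over mice did not overlap each other or those of the remaining genes. Mef2d at 20.4 ± 2.13, Mef2a at 17.2 ± 3.21 and Myod1 at 14.9 ± 1.79 overlapped in their ranges, and Six4 was lowest at 6.63 ± 1.14. Myf6 was thus higher per kilobase than Myod1 in every mouse, the lowest Myf6 level being 54.6 and the highest Myod1 level 17.5. Estimated reads behind a value ranged from 206 to 358 for Myod1, from 714 to 1079 for Myf6 and from 7445 to 12236 for Mef2c, so counting error at the median depth was 5.75%, 3.22% and 0.994% of the value (counting error only, as amplified copies are not independent molecules). The mean within-group coefficient of variation was larger than that in each of these genes, at 10.4%, 9.91% and 8.64%.

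**Figure D1:**
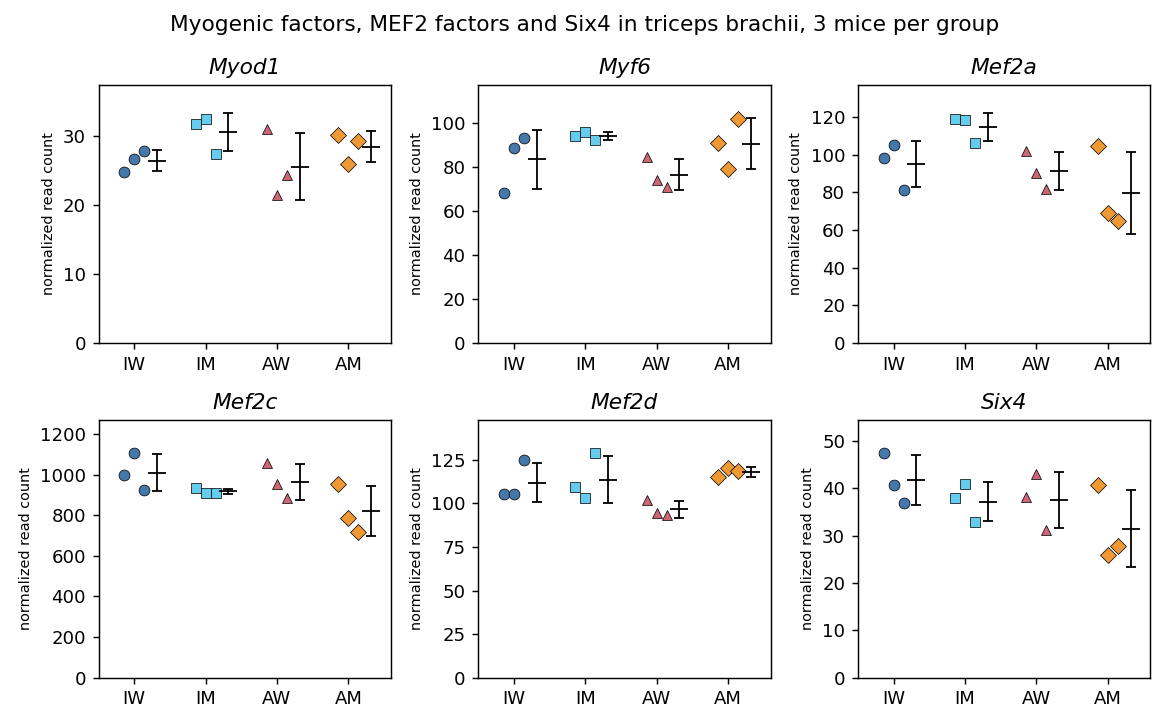
Normalized read counts of the 6 genes (vertical axes from 0) in each of 3 mice of the groups IW, IM, AW and AM, with the mean and SD at the right of each group. Groups overlap in most panels, whereas all Mef2a values of AM mice lie below all IM values and all Mef2d values of AW mice lie below those of IW and AM mice.

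Comparison of activity levels asked whether the factors differed between active and inactive mice of both genotypes. None of the 6 genes was called (limma, adjusted p-value under 0.05), where 14.5% of all genes tested were called. All 6 genes had a negative change, with a median log2 change of -0.10 against -0.02 over all genes. A single gene, Mef2a, had an unadjusted p-value under 0.05 (0.0172, adjusted 0.085 in limma), against 30.2% of all genes. Mef2a was called for activity with sample weights (-0.37, limma adjusted p = 0.014), in a fit that called 1740 genes in all against 1051. It was also called with the replicate number, not taken as a pairing here, as a block (-0.30, 0.0297). Mef2a was not called with the slow-fibre score (-0.28, limma adjusted p = 0.233). Nor was it called after quantile normalization (-0.28, 0.117) or median-of-ratios scaling (-0.29, 0.0935). Other filters and pseudocounts gave no call either (limma adjusted p = 0.0591 to 0.0911). None of the 6 separated active from inactive mice without overlap and in one direction in both genotypes, as 7.81% of genes did. Markers of other cell types moved with activity: 7 of 8 endothelial genes were called higher, with sums of 272 to 398 normalized reads in inactive and 313 to 602 in active mice, and their part in these values was not tested. Within fibres, all 11 slow-fibre genes had a positive activity change (median 1.80, 1 called by limma). All 8 myofibre markers, which include fast-fibre genes and no gene of the slow-fibre list, had a negative one (median -0.18, 2 called). Sums of fibroblast, immune, adipocyte and Schwann cell markers were 451 to 698, 52.7 to 89.8, 17.3 to 74.6 and 24.0 to 83.4 over all mice, with no gene listed at 0. Of these listed markers 6 of 6, 2 of 8, 1 of 6 and 3 of 7 were tested. None of those tested was called with activity or genotype, but so few genes can miss a change in these cell types.

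Comparison of genotypes asked whether the factors differed between myostatin-reduced and wild-type mice at both activity levels. Again none of the 6 was called, against 5.78% of all genes. The unadjusted p-value was under 0.05 in 3 genes, Myf6, Mef2c and Mef2d, where 22.5% of all genes had such a value. Estimates were positive in 4 genes (Myod1, Myf6, Mef2a and Mef2d) and negative in Mef2c and Six4. Separation of the genotypes without overlap at both activity levels was seen in 0 of the 6 and in 5.37% of all genes. Beside these values, all 11 slow-fibre genes had a negative genotype change (median -1.30, 0 called by limma) and all 8 myofibre markers a positive one (median 0.21, 1 called). The activity-by-genotype interaction was called in 0 of 6 genes and in 0% of all genes by limma, with 1 of the 6 (Mef2a, unadjusted p = 0.0417) and 4.1% of all genes at an unadjusted p-value under 0.05.

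**Figure D2:**
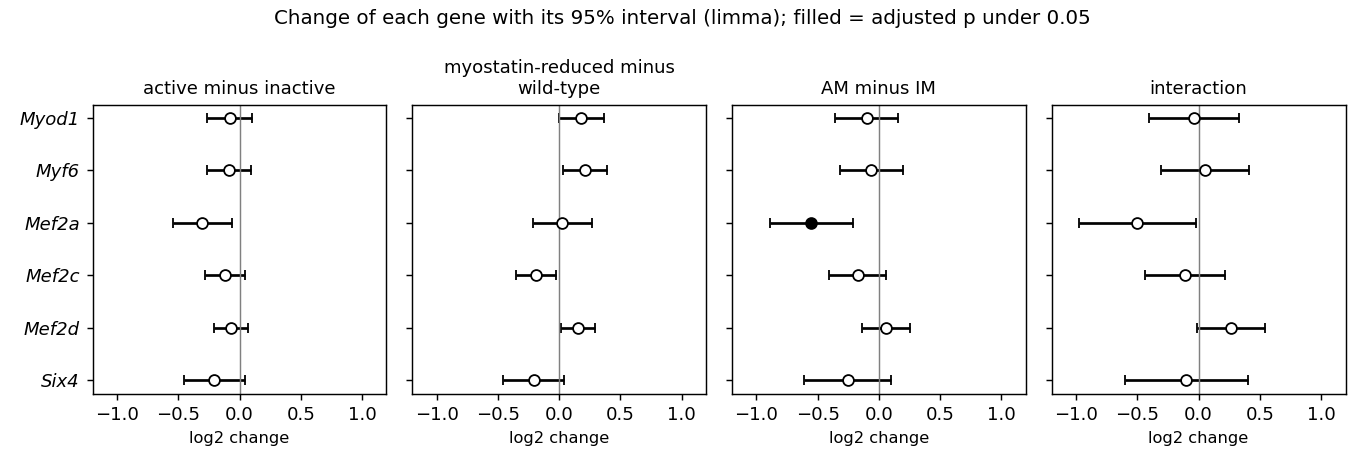
Log2 change of each gene (horizontal axes) with its 95% interval from limma, for activity, genotype, AM minus IM and the interaction, over n = 12 mice. Filled points passed an adjusted p-value under 0.05, which only Mef2a did, in the contrast of AM with IM mice at -0.55.

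Myod1, which commits cells to the muscle lineage, occupies bases 53631844 to 53634462 of chromosome 7 (plus strand, mm9 as annotated on NCBIM37) and has 3 exons. Normalized reads numbered 24.8, 26.6 and 27.8 in IW mice 1, 2 and 3, and 31.7, 32.5 and 27.4 in IM mice. In AW mice they were 30.9, 21.4 and 24.3, and in AM mice 30.1, 26.0 and 29.2. IM mouse 3 lay among the IW mice, and AW mouse 1 lay above all AM mice, so the genotypes overlapped at both activity levels. The genotype change was 0.18 (SE 0.08, 95% interval -0.00065 to 0.36, limma adjusted p = 0.224), which is 13.4% higher in myostatin-reduced mice. Without AW mouse 1 it was 0.25 with a limma adjusted p of 0.0458, in a fit that called 573 genes in all for genotype, against 419 with that mouse. Without AW mouse 2 it was 0.12 (0.422). The activity change was -0.08 (95% interval -0.26 to 0.10, adjusted p = 0.553 in limma), from -0.15 without AW mouse 1 to -0.02 without AW mouse 2.

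Myf6, the factor of mature fibres, occupies bases 106929916 to 106931785 of chromosome 10 (minus strand), also in 3 exons. Values in IW mice were 68.1, 88.6 and 93.2, and in IM mice 93.8, 95.7 and 92.3. AW mice had 84.3, 74.1 and 70.95, and AM mice 90.6, 78.9 and 101.8. The IM mice were close together, whereas IW mouse 1 was the lowest of all 12 mice and AM mouse 3 the highest. The genotype change was 0.21 (SE 0.08, 95% interval 0.03 to 0.39, unadjusted p = 0.0265, limma adjusted p = 0.161), and the activity change was -0.09 (adjusted p = 0.509 in limma), from -0.16 without IW mouse 1 to -0.04 without AM mouse 2.

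The mice with the lowest Myf6 were those with the most slow-fibre message. A slow-fibre score, the mean log2 deviation of 11 slow-fibre genes such as Myh7 and Tnnc1, was added to the group means, and its slope was tested over all genes. Per unit of the score Myf6 fell by 0.08 on the log2 scale (SE 0.02, 95% interval -0.12 to -0.04, limma adjusted p = 0.0341), a change of -5.41%. It was the only one of the 6 genes called, against 5.84% of all genes (2.95% called lower and 2.88% higher). Of the 8 myofibre markers, 6 were also called lower with the score. Among mice with a score above 1 (IW 1, AW 2, AW 3, AM 1 and AM 2), Myf6 was 68.1, 74.1, 70.95, 90.6 and 78.9, and Myod1 24.8, 21.4, 24.3, 30.1 and 26.0. Myod1 had a slope of -0.06 (95% interval -0.11 to -0.0023, unadjusted p = 0.0425, adjusted p = 0.207 in limma), which was -0.025 without AW mouse 1. The slopes of Mef2a, Mef2c, Mef2d and Six4 were between -0.01 and 0.02, with limma adjusted p-values of 0.786 to 0.906. With the score in the model the activity changes of Myod1 and Myf6 became 0.02 and 0.06 (limma adjusted p = 0.902 and 0.671), and their genotype changes both became 0.11 (0.493 and 0.358). The Myf6 slope was close to -0.07 after median-of-ratios scaling and quantile normalization, where the call was lost (limma adjusted p = 0.0553 and 0.0807). The call held with sample weights, at a mean of at least 50 and with the replicate block (limma adjusted p = 0.00791, 0.0201 and 0.0409). It held without IW 3, IM 1, IM 3 or AM 1 and was lost without any of IW 1, IW 2, IM 2, AW 1, AW 2, AW 3, AM 2 or AM 3, with limma adjusted p-values from 0.0151 to 0.158 and slopes from -0.09 to -0.06.

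**Figure D3:**
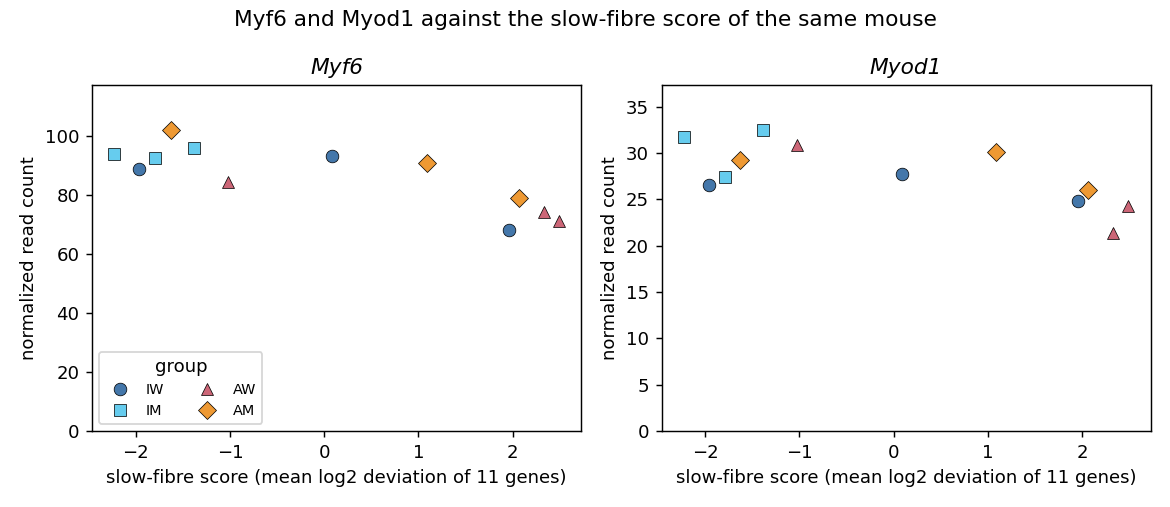
Normalized read count of Myf6 (left) and Myod1 (right), vertical axes from 0, against the slow-fibre score of the same mouse, with 1 point per mouse and a symbol for each group. The 4 lowest Myf6 values, from 68.1 to 78.9, belong to the 4 mice with the highest scores.

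Mef2a, one of the MEF2 factors of adult fibres, occupies bases 74376049 to 74517744 of chromosome 7 (minus strand), and its longest coding transcript has 12 exons. Its values were 98.3, 105.3 and 81.3 in IW mice and 119.3, 118.7 and 106.1 in IM mice. AW mice had 101.8, 90.6 and 81.8, and AM mice 104.6, 69.05 and 65.1. The 3 IM mice lay above all 9 other mice, and AM mice 2 and 3 were the lowest of all 12, while AM mouse 1 was close to the IW mice. Mef2a fell by 0.55 on the log2 scale from IM to AM mice (SE 0.16, 95% interval -0.89 to -0.21, limma adjusted p = 0.0491), which is a change of -31.8%. It was the only one of the 6 genes called in this contrast, which called 7.84% of all genes (2.53% lower), and 29.8% of all genes had no overlap between AM and IM mice. The IM minus IW change was 0.28 (95% interval -0.06 to 0.61, limma adjusted p = 0.387) in a contrast that called 0 of the 6 and 2.51% of all genes, and it was 0.17 without IW mouse 3. No values of these groups overlapped, as in 25.8% of all genes. Among wild-type mice the activity change was -0.05 (95% interval -0.39 to 0.29, adjusted p = 0.918 in limma), and the interaction, -0.50, was not called (95% interval -0.98 to -0.02, limma adjusted p = 0.89).

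In the same contrast of AM with IM mice, 5 of 8 endothelial markers were called higher (5.31% of all genes), with sums of 364 to 602 in AM and 272 to 288 in IM mice. All 11 slow-fibre genes had a positive change there (median 2.50, 1 called) and all 8 myofibre markers a negative one (median -0.21, 1 called), and the part of the endothelial and myofibre markers was not tested. The AM minus IM call of Mef2a was at the threshold. The change stayed between -0.52 and -0.55 without a filter on low values, with other scalings, with only the AM and IM mice in the fit and with the slow-fibre score, but the call was lost in each (limma adjusted p = 0.052, 0.054 to 0.0633, 0.0689 and 0.147). The call held at a mean of at least 50 (limma adjusted p = 0.0305), with sample weights (-0.62, 0.014) and with the replicate block (0.0212). Among the fits that left out a mouse it held only without IW 3, AW 1 or AM 1. Over all fits that left out a mouse, held or lost, the change was -0.43 to -0.76 (limma adjusted p = 0.00657 to 0.2). Without AM mouse 1 the activity change of Mef2a was -0.41 (limma adjusted p = 0.00585).

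Mef2d, which is known to be spliced into a muscle-specific form that counts per gene cannot separate, occupies bases 87946294 to 87976008 of chromosome 3 (plus strand), with 11 exons in its longest coding transcript. Values were 105.6, 105.1 and 125.2 in IW mice and 109.3, 102.8 and 128.7 in IM mice. AW mice had 102.1, 94.7 and 93.15, and AM mice 115.2, 120.5 and 118.5. AW mice lay below all IW mice and below all AM mice, where 17.5% and 15.2% of all genes had no overlap in the same contrasts. The AM minus AW change was 0.29 (SE 0.09, 95% interval 0.09 to 0.48, unadjusted p = 0.00768), but the limma adjusted p was 0.263. This contrast called 0.207% of all genes, none of the 6 among them. The AW minus IW change was -0.21 (limma adjusted p = 0.308) in a contrast that called 0.0276% of all genes, and it was -0.12 without IW mouse 3. Over both activity levels the genotype change was 0.15 (95% interval 0.01 to 0.29, limma adjusted p = 0.182).

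The promoters of Mef2a and Mef2d are shown because the ratio of Mef2d to Mef2a was highest in AM mice 2 and 3. The RefSeq table (GRCm38.p6, a later build than that of the counts) held 250 bases before to 50 after the annotated start for 4 of the 6 genes, 7 promoters in all, and none for Myod1 or Myf6. Capitals mark a match to the MEF2 site. Mef2a is at chr7:67372809-67373108 on the minus strand and Mef2d at chr3:88142122-88142421 on the plus strand.
Mef2a: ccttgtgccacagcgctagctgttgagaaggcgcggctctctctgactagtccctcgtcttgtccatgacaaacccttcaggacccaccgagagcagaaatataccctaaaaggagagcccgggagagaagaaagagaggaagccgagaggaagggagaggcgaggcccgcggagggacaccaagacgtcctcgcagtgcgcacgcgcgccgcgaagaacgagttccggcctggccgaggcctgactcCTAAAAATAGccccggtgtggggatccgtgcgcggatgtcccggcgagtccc
Mef2d: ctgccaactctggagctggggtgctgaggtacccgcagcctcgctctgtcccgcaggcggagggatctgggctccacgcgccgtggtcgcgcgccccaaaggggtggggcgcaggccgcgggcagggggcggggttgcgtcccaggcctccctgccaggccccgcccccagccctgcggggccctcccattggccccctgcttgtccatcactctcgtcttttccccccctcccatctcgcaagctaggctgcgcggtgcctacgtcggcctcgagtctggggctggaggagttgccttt
The Mef2a promoter held 1 match to the MEF2 site, overlapping the annotated start, where 1.86% of 32851 RefSeq promoters of 300 bases held at least 1 match on either strand. Neither promoter held an E-box (CANNTG), which 72.3% of all promoters held, nor a MEF3 site (TCAGGTT), the sequence bound by Six4 and its relatives, which 4.07% held. A MEF3 match was found in 1 of 3 Mef2c promoters and in 1 of 2 Six4 promoters, and a CArG box, the site of serum response factor, in none of the 7 (1.63% of all promoters). The GC content was 62.3% for Mef2a and 72% for Mef2d. These matches are a description of the letters in this window only.

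Mef2c, the most abundant MEF2 message here and a factor needed for sarcomere integrity, occupies bases 83643033 to 83806684 of chromosome 13 (plus strand), with 12 exons in its longest coding transcript. Values were 999.4, 1105 and 925 in IW mice and 934, 910.2 and 911 in IM mice. AW mice had 1059, 953 and 884, and AM mice 956, 787 and 716. Every pair of groups overlapped, IM mice were the closest together, and AM mice 2 and 3 were below all other mice. The genotype change was -0.19 (SE 0.07, 95% interval -0.35 to -0.03, unadjusted p = 0.0267, limma adjusted p = 0.162), a mean of 12.2% below wild-type. The activity change was -0.12 (95% interval -0.28 to 0.04, limma adjusted p = 0.3), and -0.074 without AM mouse 3.

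The make-up of MEF2 messages was described in each mouse as a share of the summed reads per kilobase of Mef2a, Mef2c and Mef2d. Mef2c made up 80.6%, 81.7% and 79.1% in IW mice and 81.5%, 81.3% and 81.1% in AW mice. In IM mice it was 77.6%, 77.7% and 76.7%, and in AM mice 78.7%, 77.8% and 76.7%. All 6 myostatin-reduced mice were below all 6 wild-type mice, and they were also without division by length (81.3% at most against 81.7% at least). This measure was chosen after the values were seen, and no test was made of it. The Mef2d share was 14.2% and 15.2% in AM mice 2 and 3, against 9.28% to 12.9% in the 9 mice of IW, IM and AW, and was 11.3% in AM mouse 1. The ratio of the Mef2d to the Mef2a value was likewise 1.74 and 1.82 in these AM mice and 1.101 in AM mouse 1, against 0.866 to 1.54 in the other groups.

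**Figure D4:**
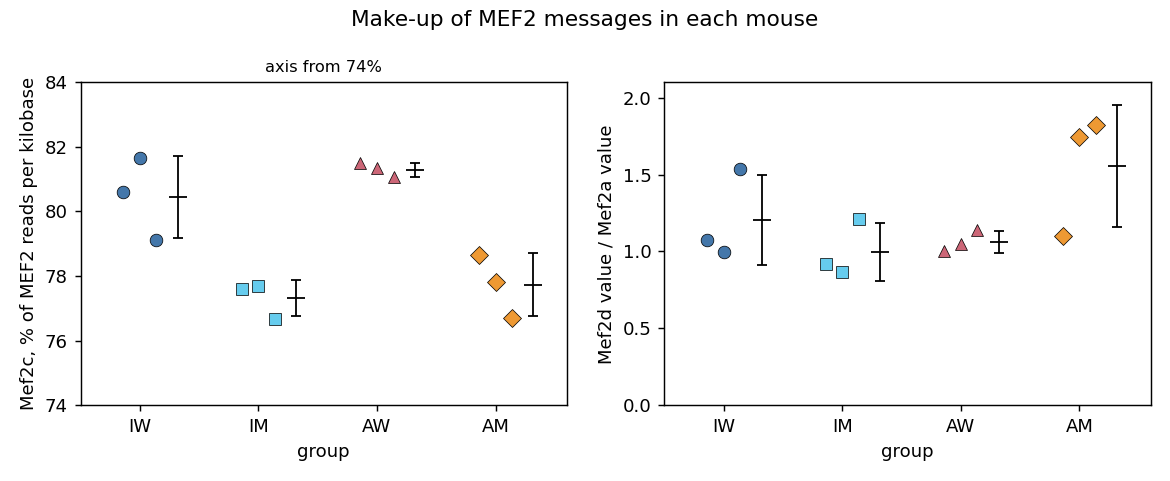
Share of Mef2c in MEF2 reads per kilobase (left, axis from 74%) and ratio of the Mef2d to the Mef2a value (right, axis from 0) in each of 3 mice per group, with mean and SD at the right of each group. The Mef2c share is at least 79.1% in wild-type and at most 78.7% in myostatin-reduced mice.

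Six4, a homeobox factor that acts with EYA cofactors upstream of the myogenic factors, occupies bases 74201246 to 74214401 of chromosome 12 (minus strand) in 3 exons. Values were 47.4, 40.7 and 36.95 in IW mice and 37.8, 40.8 and 32.8 in IM mice. AW mice had 38.1, 42.95 and 31.2, and AM mice 40.7, 25.9 and 27.8. Every pair of groups overlapped, and AM mice 2 and 3 were again the lowest of all 12. The genotype and activity changes were both -0.21 (SE 0.12, limma adjusted p = 0.315 and 0.25). Without AM mouse 1 the activity change was -0.30 (limma adjusted p = 0.0434), and the AM minus IM change was -0.45 (adjusted p = 0.0493 in limma) against -0.26 (0.346) with it and -0.13 (0.744) without AM mouse 2. The AM minus IM contrast called 1098 genes in all without AM mouse 1, against 568 with it. Six4 and Mef2a varied within groups more than most genes, with a log2 SD above that of 90.7% and 89.5% of genes tested.

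Across the 12 mice, with groups not removed, correlations of log2 values are given as a description. Myod1 and Myf6 varied together (Pearson r = 0.758, Spearman rho = 0.776). Mef2c varied with Six4 (0.792, 0.699) and Mef2a (0.717, 0.441), and Mef2a with Six4 (0.71, 0.462), while Mef2d had negative coefficients with Mef2a, Mef2c and Six4 (-0.228 to -0.414 for r). The points share group differences and the low values of AM mice 2 and 3, and the rank coefficients of Mef2a are the lower. The gene closest to Myf6 was Tnnc2, the fast skeletal troponin C gene (r = 0.945). Fan1 and Prkaa2, a catalytic subunit of AMP-activated kinase, were closest to Mef2a (0.979 and 0.974), and Eif2b2 to Myod1 (0.942). For Mef2c it was Ptpn11 (0.949), for Mef2d Fhod1 (0.914) and for Six4 Zbtb38 (0.928).

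Among proteins that act on MEF2, 20 of 24 listed genes were tested. With activity 5 were called lower and 0 higher, where 6.51% of all genes were called lower and 7.99% higher, and the median change was -0.14 against -0.02 over all genes. Crebbp, an acetyltransferase gene, was at 34.9 ± 0.765 in IW, 33.9 ± 3.62 in IM, 26.4 ± 2.30 in AW and 24.1 ± 1.30 normalized reads in AM (SD, n = 3 mice), a fall of 0.43 on the log2 scale (SE 0.06, limma adjusted p = 0.00179). The related Ep300, which encodes p300, changed by -0.24 (limma adjusted p = 0.0272). Camk2a and Camk2g, calcium/calmodulin kinases that phosphorylate class IIa histone deacetylases, changed by -0.39 and -0.25 (adjusted p = 0.00545 and 0.0137), and Mapk14, the p38 kinase that phosphorylates MEF2, by -0.18 (0.0421). Camk2a was also called lower with the slow-fibre score, at -0.08 per unit (limma adjusted p = 0.0076), as 1 of the 20 genes against 2.95% of all genes. With genotype Carm1, an arginine methyltransferase and coactivator, was called higher at 0.28 (adjusted p = 0.0332 in limma). The interaction was called in none of the 20.

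Of partners and inhibitors of the myogenic factors, 7 of 20 listed genes were tested. Bhlhe41, a repressor of the basic helix-loop-helix class, fell by 0.47 with activity (SE 0.12, limma adjusted p = 0.0207), from 38.8 ± 8.09 in IW and 44.2 ± 6.94 in IM to 28.8 ± 5.64 in AW and 30.3 ± 2.74 in AM mice. It also fell by 0.12 per unit of the slow-fibre score (limma adjusted p = 0.0223). These were the only calls among the 7 genes with activity or the score, where 6.51% and 2.95% of all genes were called lower, and 0 of 7 were called with genotype, against 5.78% of all genes.

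Of further homeobox, EYA and other muscle transcription factors, 19 of 28 listed genes were tested, with 3 called lower with activity (6.51% of all genes) and 2 higher and 1 lower with genotype (3.57% and 2.21% of all genes). Tbx15, a factor of fast fibres, was at 555 ± 35.8 in IW, 683 ± 39.3 in IM, 498 ± 28.2 in AW and 581 ± 40.5 in AM mice. Its changes were 0.26 with genotype (SE 0.055, limma adjusted p = 0.0175) and -0.19 with activity (0.034). Nfix, which drives the fetal muscle programme, rose by 0.35 with genotype (adjusted p = 0.0418 in limma), and Tead1, the effector of Hippo signalling, fell by 0.33 (0.0317). Sox6, a repressor of slow-fibre genes, fell by 0.38 with activity (limma adjusted p = 0.0261), and Nfic fell by 0.26 (0.0384).

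Muscle genes that depend on E-boxes or MEF2 sites gave 31 of 39 listed genes for testing. With activity 2 were called higher and 4 lower, where 7.99% and 6.51% of all genes were, and the median change was -0.11. With genotype 2 were called higher and 2 lower, against 3.57% and 2.21% of all genes, with a median of -0.01. With the slow-fibre score 6 were called lower and 2 higher, against 2.95% and 2.88% of all genes. Those lower included the fast light chain genes Mylpf and Myl1 (-0.09 and -0.11 per unit, limma adjusted p = 0.00565 and 0.00603), Ckm (-0.08, 0.0145) and Myoz1 (-0.08, 0.0168), and those higher were Lmod2 (0.38, 4.73e-05) and Hspb7 (0.24, 0.0114). Satellite cell markers other than Pax7 and Myf5 (8 of 18 tested) and Notch pathway genes (11 of 15 tested), which keep satellite cells quiescent, had 0 called with activity, genotype or the score, where 14.5%, 5.78% and 5.84% of all genes were called. The summed satellite cell markers, 13 genes, were 551 to 579 in IW, 503 to 543 in IM, 534 to 567 in AW and 506 to 574 in AM mice. Among them Itgb1 and Itga7, which are expressed in fibres as well, and Cd34, which endothelial cells express too, had genotype estimates of -0.12, -0.09 and -0.11 (limma adjusted p = 0.159, 0.49 and 0.524). Of the Notch genes, the ligand Jag2 and the receptors Notch3 and Notch1 had 0.04, 0.19 and 0.06 (0.744, 0.603 and 0.871).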

How the data were processed

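RNA of the triceps brachii of 12 mice was measured by single-end sequencing of polyadenylated RNA. The authors mapped reads with CASAVA (version not given in the sources used here) to mm9, counted reads in RefSeq exons and summed them to genes. Deposited values are of the unit signal: read counts that the authors scaled to an equal trimmed mean of non-mitochondrial genes, with no division by length. In each gene the highest group mean was at least 3.0, so genes of lower level were not analysed here. Use of strand was not stated, and counting could have divided reads between overlapping or similar genes.

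Groups were taken from the sample titles. The value of 1 read, 0.077 to 0.105, was estimated from steps between low values and gave the depth; 3 reads corresponded to 0.231 to 0.316. Of values from 20 to 50, 68% to 69.5% were whole reads within 0.0055 (10.4% to 14.3% by chance), so no test on counts was run. Genes with a mean of at least 10 were fitted on log2(value + 1) with limma 3.58.1 (R version 4.3.3), which understates changes of low genes, with a mean per group, a trended eBayes and Benjamini-Hochberg adjustment over 7247 genes. Intervals are 95% and not adjusted. The slow-fibre slope came from the same model with the score added. The fit was tested on simulated data. P-values measure the spread between mice.

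The genes and lists were chosen with earlier results of these data known. The text names the 6 genes, the 3 genes most correlated with each or fewer, Mstn, and from each list up to 6 called genes with the smallest p-values, or the 3 highest where none was called. Single genes below the filter were to be tested by exact permutation, but none of the 6 was. Positions are from the NCBIM37 annotation, with all 6 matched. Same-numbered mice of different groups were different animals. No source used here says that the numbers mark mice matched for running, so no block was used. Alternatives were other pseudocounts, filters and scalings, sample weights, a replicate block, the slow-fibre score, fits of 2 groups and leaving out each mouse.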

Additional observations from a re-analysis of the deposited data

How the results depend on the processing

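Leaving out the filter, scaling by median of ratios or by quantiles, adding the slow-fibre score, or fitting only 2 groups gave 0 of the 6 genes for AM minus IM in place of 1, and both scalings also gave 0 in place of 1 for the slow-fibre slope. Sample weights and the replicate block each gave 1 (Mef2a) in place of 0 for activity, with log2 changes of -0.37 and -0.30 (limma adjusted p = 0.014 and 0.0297). Fits that left out a mouse gave 0 to 2 of the 6 for activity, 0 to 1 for genotype, 0 to 2 for AM minus IM and 0 to 1 for the slope.

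Counts over all genes moved as follows, the value as reported first. Activity had 1051, with 1740 under sample weights, 401 with the slow-fibre score and 552 to 1488 without a mouse. Genotype had 419, with 272 at a mean of at least 50 and 182 to 573 without a mouse. The interaction had 0, with 0 to 1 without a mouse. AM minus IM had 568, with 931 under weights, 187 with the score and 86 to 1098 without a mouse. IM minus IW had 182, with 334 under weights, 98 with the replicate block, 115 with the score and 23 to 216 without a mouse. AW minus IW had 2, with 39 at a mean of at least 50, 1 after median-of-ratios scaling, 415 under weights, 0 with the block, 28 with the score, 0 with only 2 groups and 0 to 198 without a mouse. AM minus AW had 15, with 7 at a mean of at least 50, 9 with the block, 29 with the score, 6 with only 2 groups and 4 to 18 without a mouse. The slope had 423, with 958 under weights and 31 to 804 without a mouse.

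Directions turned for values close to 0. Under sample weights the interaction of Myod1 was 0.0053 and the IM minus IW change of Mef2d -0.011. With the slow-fibre score Myod1 was at 0.024 for activity, 0.025 for the interaction, 0.012 for AW minus IW and 0.037 for AM minus IM. With the score Myf6 was at 0.055 for activity and 0.12 for AM minus IM, and Mef2d at -0.0019 for IM minus IW. Without a mouse the genotype change of Mef2a was -0.080 to 0.089, and the interactions of Myod1, Myf6 and Six4 were -0.15 to 0.10, -0.037 to 0.19 and -0.29 to 0.023. For AW minus IW the values were -0.20 to 0.054 for Myod1, -0.16 to 0.026 for Mef2a and -0.13 to 0.0021 for Mef2c. For AM minus IM they were -0.15 to 0.032 for Myf6 and -0.0072 to 0.15 for Mef2d, and for IM minus IW -0.073 to 0.10 for Mef2d. Slopes were -0.065 to 0.019 for Mef2a, -0.057 to 0.0088 for Mef2c, -0.030 to 0.00024 for Mef2d and -0.0057 to 0.052 for Six4. The cause was not tested.

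Same-numbered mice of different groups had correlated deviations over 0.1 in 9 of 18 pairs, and 5 of 12 mice were closest to a mouse of their own number, so the numbers were not taken as a pairing over the 4 groups. In IM and AM mice all 3 same-numbered pairs were over 0.1 (0.171 to 0.322), and there the block left Mef2a called (limma adjusted p = 0.0212). Apart from Mef2a for activity, the replicate block changed no call of the 6 genes. With 3 mice a group, the printed intervals, which are not adjusted, give the precision of each change.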
